A study of Homo sapiens with 2 samples.

Results

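The genes described here encode the mitochondrial ribosomal proteins. They were taken by name, as every gene of the deposited FPKM table whose symbol is MRPL or MRPS followed by a number and at most 1 letter from A to C. The rule found 76 genes among 25436, and no measured value entered it. The libraries came from HuES53 and HuES64, 2 lines of human embryonic stem cells that served as the diploid controls of a study of haploid embryonic stem cells. Both lines came from fertilized (IVF) embryos and were grown undifferentiated below passage 20, with no genetic change or treatment given in the labels. Polyadenylated RNA was sequenced from 1 library per line, so no difference below has a replicate check, no p-value is given, and each difference describes these libraries rather than the lines.

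The mitochondrial ribosome, or mitoribosome, translates the few messenger RNAs that the mitochondrial genome encodes, all of them for subunits of the respiratory chain and ATP synthase. Its RNA is transcribed in the mitochondrion, while its proteins are encoded by nuclear genes, made in the cytosol and imported. Part of these proteins have counterparts in bacterial ribosomes, and part were added in the course of mitochondrial evolution. Each protein is present once per ribosome, except for the stalk protein MRPL12, which is present in several copies. Pluripotent cells rely strongly on glycolysis, yet they contain active mitochondria and translate mitochondrial messengers.

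The libraries carried the transcripts of pluripotent cells. The 8 pluripotency markers ranged from 42.1 FPKM (SALL4) to 1053 FPKM (POU5F1) in HuES53, and from 24.9 FPKM (SALL4) to 1381 FPKM (POU5F1) in HuES64. FPKM is the number of fragments scaled by transcript length and library size, so levels can be set side by side between genes. Of 4 neuroectoderm markers, PAX6 was highest, at 1.19 FPKM in HuES53 and 0.720 FPKM in HuES64. Of 6 fibroblast markers, COL1A1 was highest, at 138 FPKM in HuES53 and 168 FPKM in HuES64, while DCN stood at 0.199 and 0.438 FPKM in the same order. COL1A2 was higher in HuES53 (66.5 FPKM, against 46.7 FPKM in HuES64), and the other fibroblast markers were lower in HuES53. The 4 endoderm markers ranged from 6.89 to 11.9 FPKM in HuES53 and from 6.52 to 10.6 FPKM in HuES64. The 4 mesoderm markers ranged from 0.736 to 7.26 FPKM in HuES53 and from 0.365 to 4.41 FPKM in HuES64, with MIXL1 at 6.84 FPKM in HuES53 and 2.52 FPKM in HuES64. TBX6 was lower in HuES53 (2.37 FPKM, against 3.99 FPKM in HuES64), and the other mesoderm markers were higher in HuES53. Of 4 trophoblast markers, KRT7 was highest, at 6.19 FPKM in HuES53 and 5.35 FPKM in HuES64, while the table gives CGA 2.90 FPKM for HuES53 and lists it at 0 for HuES64. The part of such cells in the differences below was not tested. From the smallest steps of the values, 1 FPKM over 1 kb stood for about 18.6 fragments in HuES53 and 15.2 in HuES64, for an assumed fragment length of 200 bases. On that estimate, the members were measured with a median of 1067 fragments in HuES53 and 966 in HuES64. The counting error of a log2 difference was then 0.06 at the median and 0.18 at most, in MRPL19, and it leaves out all variation between cultures and library preparations.

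Every mitochondrial ribosomal protein gene was expressed in both lines. All 76 stood above 10 FPKM in HuES53 and in HuES64. The median was 63.5 FPKM in HuES53 (12.5 to 356) and 73.0 FPKM in HuES64 (12.9 to 434). The 13790 genes whose mean reached 1 FPKM had a median of 10.8 FPKM. All 76 members lay above it, and their own median lay at percentile 88.8 of those genes. Together they took up 0.936% of all FPKM of the HuES53 library and 0.967% of the HuES64 library. The 79 genes of the cytosolic ribosome, for comparison, took up 16.9% in HuES53 and 21.97% in HuES64.

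A small number of members stood far above the others. MRPS21, the counterpart of the bacterial small-subunit protein bS21, was the highest in each line, at 356 FPKM in HuES53 and 434 FPKM in HuES64. Its locus in the table is chr1:150266269-150280819, in the build of the deposited table, which is not given in the sources used here. MRPL51, a large-subunit protein with no bacterial counterpart, came second, at 299 FPKM in HuES53 and 384 FPKM in HuES64. These were the only members above 200 FPKM in both lines. MRPS34, a small-subunit protein with no bacterial counterpart, followed at 159 FPKM in HuES53 and 219 FPKM in HuES64. Next by mean level came MRPL12, the stalk protein that helps recruit translation factors, at 129 FPKM in HuES53 and 194 FPKM in HuES64. MRPL41 stood at 122 FPKM in HuES53 and 194 FPKM in HuES64. MRPL20 (143 and 170 FPKM), MRPS6 (148 and 157 FPKM), MRPS24 (126 and 177 FPKM), MRPS15 (125 and 175 FPKM) and MRPL37 (135 and 153 FPKM) completed the highest 10, each with HuES53 given before HuES64. The lines shared 7 of their 10 highest members.

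At the other end, 7 members stood below 25 FPKM in both lines. MRPS25, of the small subunit, stood at 14.2 FPKM in HuES53 and 13.8 FPKM in HuES64. MRPS14, the counterpart of bacterial uS14, stood at 12.5 FPKM in HuES53 and 16.9 FPKM in HuES64. MRPL19, the counterpart of bL19, stood at 16.7 FPKM in HuES53 and 12.9 FPKM in HuES64. MRPL22, whose bacterial counterpart lines the exit tunnel, stood at 18.8 FPKM in HuES53 and 19.0 FPKM in HuES64. MRPS36 stood at 18.9 FPKM in HuES53 and 20.7 FPKM in HuES64. MRPS36 carries a ribosomal name, but its product (KGD4) is now known as a part of the 2-oxoglutarate dehydrogenase complex, so it was assigned to neither subunit. The highest member exceeded the lowest 28.5-fold in HuES53 and 33.7-fold in HuES64. Most members were closer together than that, with 68 of 76 within 3-fold of the median in HuES53 and 65 of 76 in HuES64. Levels kept nearly the same order in the lines (Pearson's r of log2(FPKM + 1) 0.971, Spearman's rho 0.964, over 76 genes that share the 2 libraries). The values over all 13790 genes tested were close to these (r 0.958, rho 0.952). Shorter transcripts had the higher levels (rho of level and transcript length -0.31), which was also the case over the 12843 genes with a reference transcript (-0.28).

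**Figure D1:**
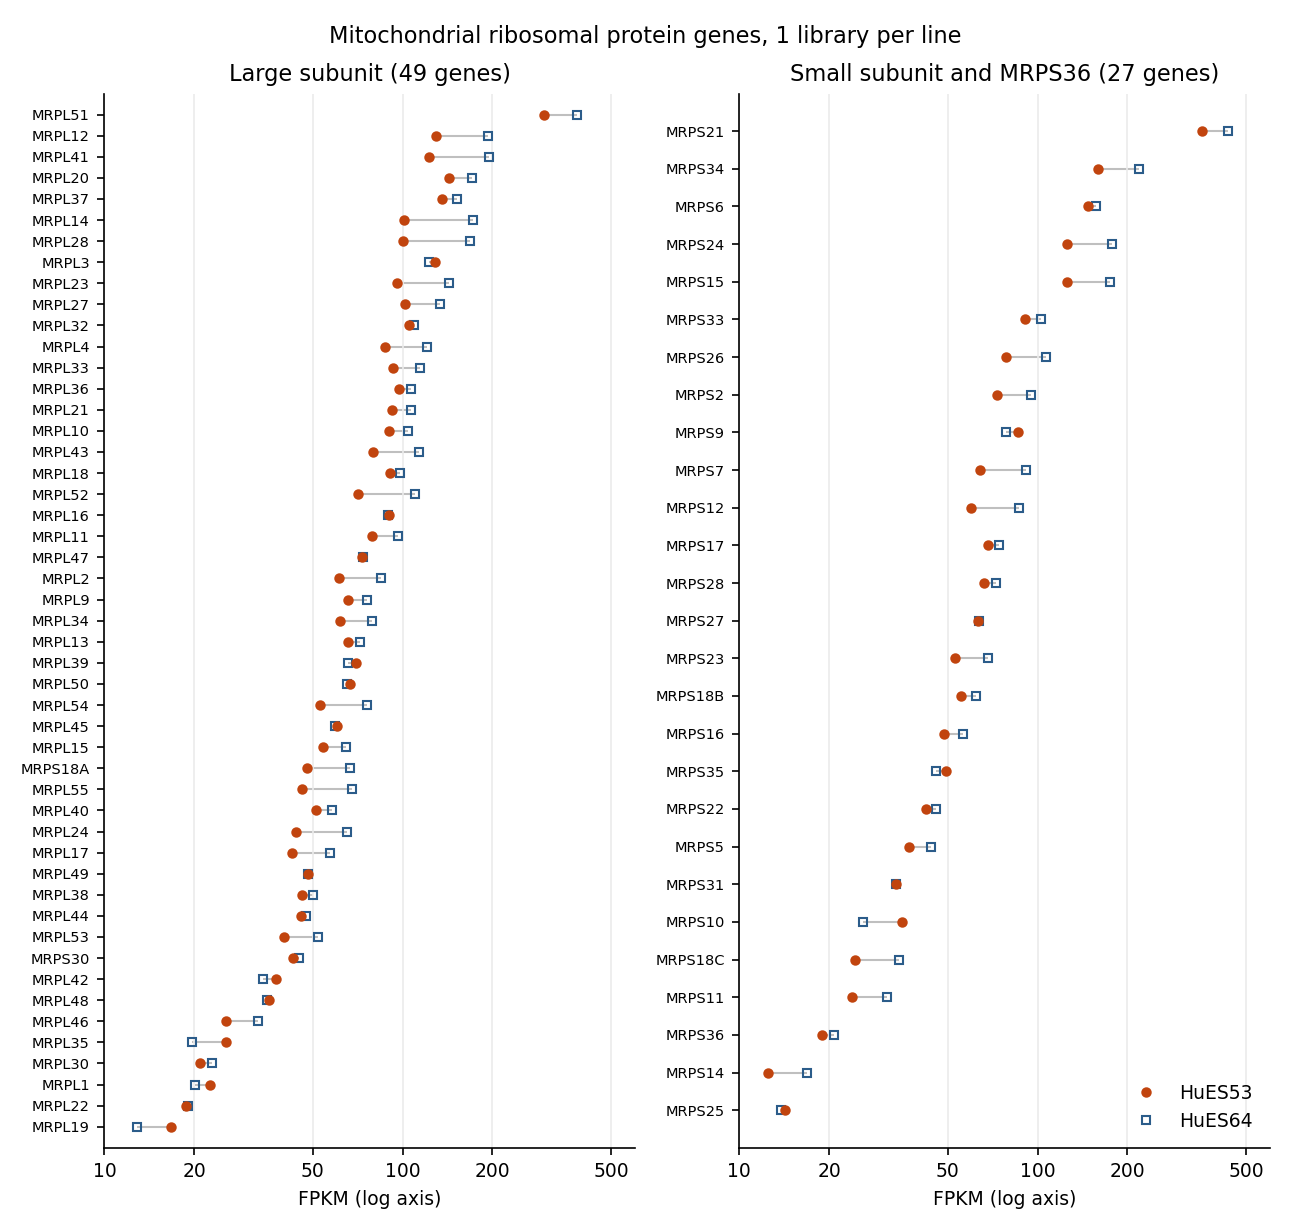
FPKM (log axis) of each mitochondrial ribosomal protein gene in HuES53 (filled circles) and HuES64 (open squares), 1 library per line, with the 49 large-subunit genes at left and the 26 small-subunit genes and MRPS36 at right, ordered by mean level. MRPS21 and MRPL51 stand apart at the top, and in most rows the square lies to the right of the circle.

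Most members were lower in HuES53 with the deposited values, by small amounts. Differences are given as the HuES53 value minus the HuES64 value on the log2(FPKM + 1) scale, so a negative value means lower in HuES53. Of 76 members, 61 were lower in HuES53 (80.3%), where 47.5% of all 13790 genes tested were, although with TPM scaling, which sets each library to the same sum, the number was 36 of 76 and the share of all genes 28%. The median difference of the members was -0.21, against 0.03 for all genes, and with TPM scaling it turned to 0.04, against 0.25 for all genes. Relative to all genes the members thus lay at -0.23 with the deposited values and at -0.22 with TPM scaling. TPM scaling shifts all differences by nearly the same amount, so this relative value could hardly change. At least 1.5-fold lower in HuES53 were 4 members (5.26%; 7.84% of all genes), and at least 1.5-fold higher were 0 members (9.22% of all genes). No member differed 2-fold in either direction (1.7% of all genes were at least 2-fold lower and 2.15% at least 2-fold higher). The differences of the members had a standard deviation of 0.26 across genes, against 0.56 over all genes tested, many of which were much lower in level. Within 1.1-fold of equality lay 27 members (35.5%) and 25.7% of all genes.

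The 4 members past 1.5-fold all belong to the large subunit. MRPL14, a protein of the subunit interface to which the assembly factor MALSU1 binds, stood at 101 FPKM in HuES53 and 172 FPKM in HuES64, a difference of -0.76. MRPL28, the counterpart of bL28, stood at 100.3 FPKM in HuES53 and 169 FPKM in HuES64 (-0.74). MRPL41 had a difference of -0.67 with the levels given above. MRPL52, which like MRPL41 has no bacterial counterpart, stood at 70.7 FPKM in HuES53 and 109.9 FPKM in HuES64 (-0.63). With TPM scaling all 4 remained lower in HuES53 but none reached 1.5-fold (-0.52 for MRPL14, -0.50 for MRPL28, -0.42 for MRPL41 and -0.39 for MRPL52). MRPL12 (-0.58) and MRPL23, whose bacterial counterpart sits at the exit of the peptide tunnel (95.4 FPKM in HuES53 and 143 FPKM in HuES64, -0.57), lay just inside 1.5-fold.

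Few members were higher in HuES53. MRPS10, the counterpart of uS10 in the head of the small subunit, showed the largest difference in this direction, at 35.2 FPKM in HuES53 and 25.9 FPKM in HuES64 (0.43). MRPL35, the counterpart of bL35, stood at 25.6 FPKM in HuES53 and 19.7 FPKM in HuES64 (0.36). MRPL19 had a difference of 0.35. With TPM scaling these 3 were past 1.5-fold higher in HuES53, at 0.68, 0.61 and 0.60. The median of all genes was then 0.25. The share of all genes past 1.5-fold with TPM scaling is not given here, so this count has no background. MRPL1, whose bacterial counterpart forms the stalk near the exit site of transfer RNA, stood at 22.6 FPKM in HuES53 and 20.1 FPKM in HuES64 (0.16). MRPL42 (37.5 FPKM in HuES53 and 34.0 FPKM in HuES64, 0.14) and MRPS9 (85.9 FPKM in HuES53 and 78.5 FPKM in HuES64, 0.13) followed.

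The subunits had similar medians. For the counts below, 47.5% of all genes were lower in HuES53, and 28% with TPM scaling. Of 49 large-subunit genes, 39 were lower in HuES53, with a median of -0.21 (23 of 49 and 0.03 with TPM scaling). Of 26 small-subunit genes, 21 were lower, with a median of -0.23 (13 of 26 and 0.02 with TPM scaling). Median levels were likewise near each other, at 65.5 FPKM in HuES53 and 75.9 FPKM in HuES64 for the large subunit, and 61.3 FPKM in HuES53 and 70.4 FPKM in HuES64 for the small subunit. The 46 members with a bacterial counterpart had higher median levels (70.5 FPKM in HuES53 and 85.6 FPKM in HuES64) than the 29 without one (52.8 FPKM in HuES53 and 62.1 FPKM in HuES64). Of those with a counterpart 39 were lower in HuES53, with a median difference of -0.25, and of those without one 21 were lower, with a median of -0.16 (25 and 11 lower with TPM scaling, at -0.0066 and 0.08). None of these contrasts between groups of members was tested.

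At the base of the stalk, MRPL10 stood at 89.9 FPKM in HuES53 and 104 FPKM in HuES64 (-0.21), and MRPL11 at 79.1 FPKM in HuES53 and 96.2 FPKM in HuES64 (-0.28). MRPS12, the counterpart of the bacterial decoding-site protein uS12, stood at 59.7 FPKM in HuES53 and 86.7 FPKM in HuES64 (-0.53). MRPS7, of the head of the small subunit, stood at 64.1 FPKM in HuES53 and 91.7 FPKM in HuES64 (-0.51). MRPS24, the counterpart of uS3 at the entrance of the messenger channel, had a difference of -0.49. MRPL45, which lies near the tunnel exit and ties the ribosome to the inner membrane, was close to level (60.03 FPKM in HuES53 and 59.1 FPKM in HuES64), as was MRPL3, a protein near the catalytic centre (129 FPKM in HuES53 and 123 FPKM in HuES64).

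The 3 human homologues of bacterial bS18 differed in level. MRPS18A (mL66) and MRPS18B (mS40) were counted above among the members without a bacterial counterpart, although they are homologues of bS18. MRPS18C, the one that holds the bS18 place in the small subunit, was the lowest, at 24.3 FPKM in HuES53 and 34.2 FPKM in HuES64 (-0.47). MRPS18B, of the small subunit, stood at 55.4 FPKM in HuES53 and 62.1 FPKM in HuES64 (-0.16). MRPS18A, which despite its name sits in the large subunit, stood at 47.6 FPKM in HuES53 and 66.4 FPKM in HuES64 (-0.47). MRPS18A and MRPS18B were thus near each other in HuES64, and both were well above MRPS18C in each line. They lie at chr6:43638934-43655549 (MRPS18A), chr6:30585486-30594174 (MRPS18B) and chr4:84377118-84382929 (MRPS18C) in the build of the deposited table. MRPS30, the other large-subunit protein with a small-subunit name, stood at 42.7 FPKM in HuES53 and 45.0 FPKM in HuES64.

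Of the 76 members, 13 had a locus whose span overlaps that of another gene of the table. Fragments from any shared stretch may not be told apart, with the strand setting unknown, and whether exons overlap was not examined. The 13 members were MRPL3, MRPL9, MRPL13, MRPL20, MRPL43, MRPL49, MRPS6, MRPS7, MRPS12, MRPS16, MRPS18C, MRPS24 and MRPS25. Without them, 50 of 63 members were lower in HuES53, with a median of -0.21, as were 46.1% of the 10053 genes without such an overlap. MRPL49 overlaps FAU, a gene of the cytosolic ribosome, and differed from it in the size of the difference. MRPL49 stood at 48.0 FPKM in each line, while FAU stood at 858 FPKM in HuES53 and 1268 FPKM in HuES64 (-0.56). MRPS24 lies inside a read-through gene, URGCP-MRPS24, to which the table assigned practically nothing (under 0.1 FPKM in each line).

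The difference followed the GC content of the transcripts, in the members as in all genes. Across the 76 members, Spearman's rho of difference and transcript GC was -0.71, and across the 12843 genes with a reference transcript it was -0.50, genes sharing the 2 libraries. Among the members the difference also followed mean level (rho -0.43), and level rose with GC content (rho 0.48), so the 2 relations are entangled. The members were put in 4 groups of 19 by GC content. In the group lowest in GC (median 40.3%), 10 of 19 were lower in HuES53 and the median difference was -0.0041. In the group highest in GC (62.6%), 19 of 19 were lower and the median was -0.49. The share of all genes lower within these GC ranges is not given here, so these counts have no background beside them. The 4 members at least 1.5-fold lower had a GC content of 55.5% to 71.9%, and the 6 with the largest differences in the other direction had 37.0% to 45.5%. Over all genes, the median difference was 0.32 in the lowest of 10 equal groups by GC content and -0.31 in the highest. In each of the 10 groups the members, 3 to 11 in number, had a lower median than all its genes. Once medians over bins of GC content and length were subtracted, the median difference of the members was -0.18, with 63 of 76 below 0. When the longest transcript of each gene stood for the gene in place of the median transcript, it was -0.03, with 45 of 76 below 0. With a trend in mean expression subtracted instead, it was -0.08, with 53 of 76 below 0. Under each of these removals 50% of all genes lay below 0, because medians were subtracted. The size of the difference thus depended on how these trends were removed, and their part in it was not tested.

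**Figure D2:**
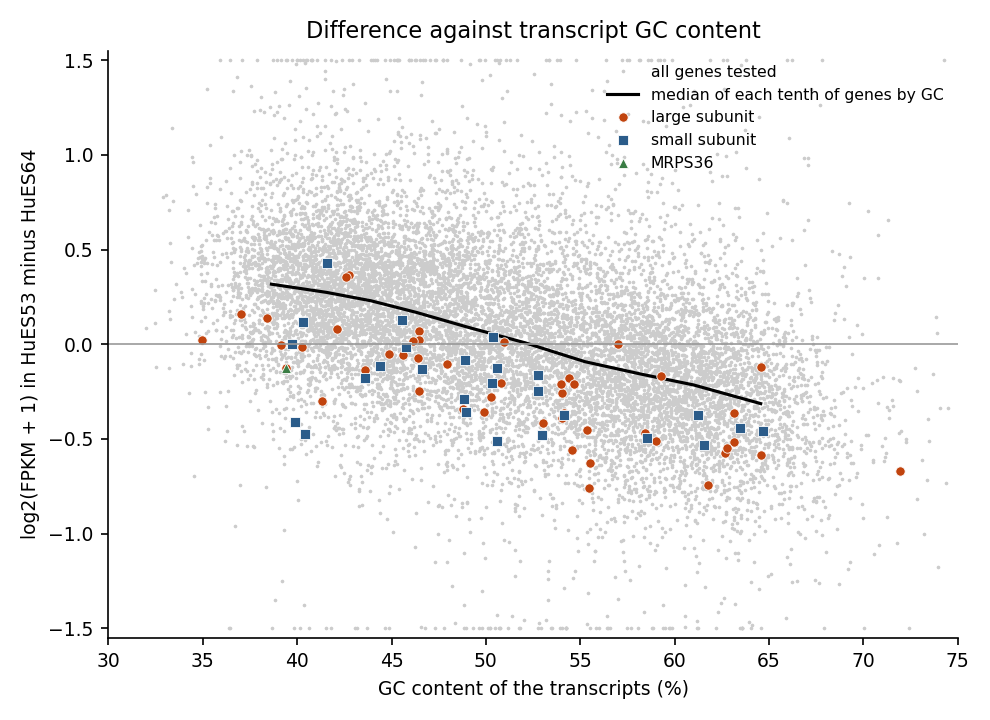
log2(FPKM + 1) in HuES53 minus HuES64 against the GC content of the transcripts, for large-subunit genes (circles), small-subunit genes (squares), MRPS36 (triangle) and all genes tested (grey points, those beyond 1.5 drawn at the edge, 1 library per line). The line joins the medians of 10 equal groups of all genes by GC content, from 0.32 to -0.31, and the members slope the same way, mostly below it.

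With GC content and length taken into account, other members led the list. MRPS14 (-0.67) and MRPS18C (-0.63), both of low GC content, were then the only members at least 1.5-fold lower in HuES53. The longest transcript in place of the median one left 1 member that far lower. The share of all genes that far lower under these removals is not given here, so these counts have no background. MRPS18C rested on about 211 fragments in HuES53 and 243 in HuES64, and its locus overlaps FAM175A. MRPL14 (-0.52) and MRPL52 (-0.48) stayed among the lowest, whereas MRPL12 (-0.10) and MRPL41 (-0.21) came nearer to 0. MRPL35 (0.26), MRPL19 (0.21) and MRPS10 (0.18) remained higher in HuES53. With the longest transcript in the same removal, MRPL35 was at 0.085, MRPL19 at 0.077 and MRPS10 at 0.32, while MRPL14 was at -0.31, MRPL52 at -0.32 and MRPL41 at -0.081. In all, 34 of 76 members were lower in HuES53 under all 3 of the deposited scaling, TPM scaling and removal of the GC and length trend, as were 24.7% of the 12843 genes with a reference transcript.

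**Figure D3:**
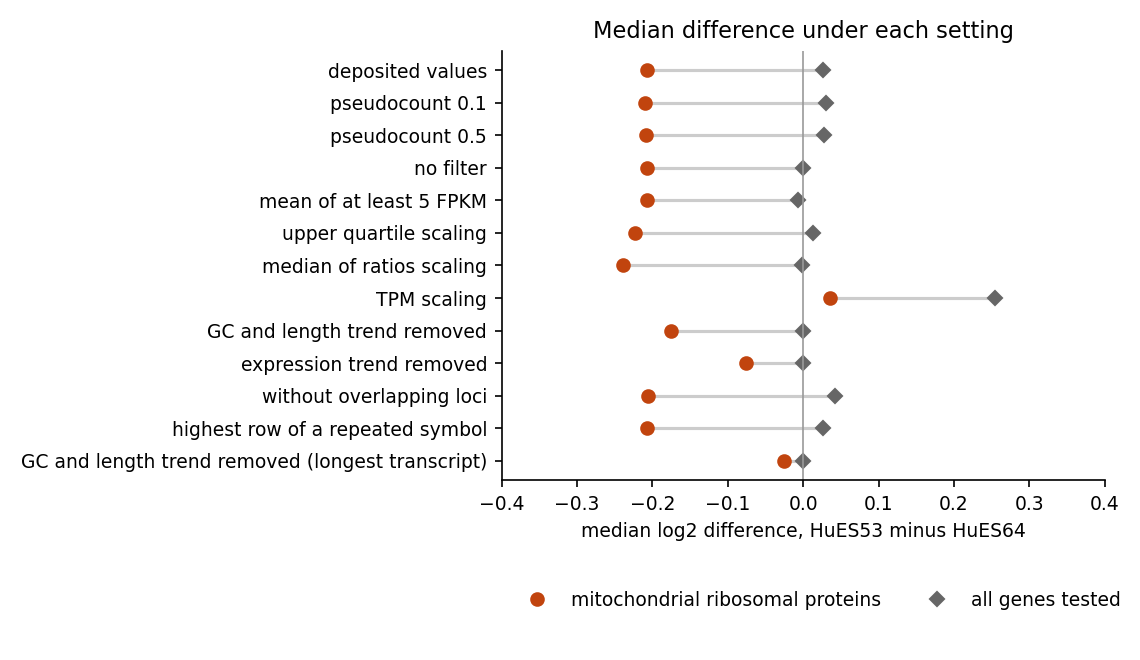
Median log2 difference, HuES53 minus HuES64, of the mitochondrial ribosomal proteins (circles) and of all genes tested (diamonds) with the deposited values and under each other setting. The circle lies left of the diamond in each row, by 0.23 with the deposited values and by 0.03 with the GC and length trend of the longest transcript removed. The other scalings shift circle and diamond by nearly the same amount.

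The promoters of the members were compared with other promoters for letters that factors of mitochondrial gene expression are known to bind. A window of 300 bases, from 250 before to 50 after the start site, was available from RefSeq (GRCh38.p14) for 68 of the 76 members. The motifs, searched on both strands, were CCGGAAG, the core of ETS factors such as GABPA, AAGATGGCG, bound by YY1, and the letters GCGC and TGCGC with any 1 letter between them, bound by NRF1. No motif is contained in another, but an ETS match can run into a YY1 match through the shared letters AAG. The ETS letters were found in 28 of 68 member promoters (41.2%), against 19.3% of the promoters of genes tested and 10.7% of all promoters. The YY1 letters were found in 13 (19.1%), against 4.003% of the promoters of genes tested and 1.86% of all promoters. The NRF1 letters were found in 7 (10.3%), against 11.7% of the promoters of genes tested and 6.30% of all promoters. A ratio of observed to expected CpG of at least 0.6 was found in 66 of 68 member promoters (97.1%), against 83.4% of the promoters of genes tested. Of 37 ETS matches, 27 began between 60 bases before the start site and the end of the window. Of 14 YY1 matches, 11 began in that stretch, 10 of them at or after the start site. Positions of matches in other promoters are not given here, so these position counts have no background beside them. A match describes the letters of the window and does not show that a factor binds there.

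**Figure D4:**
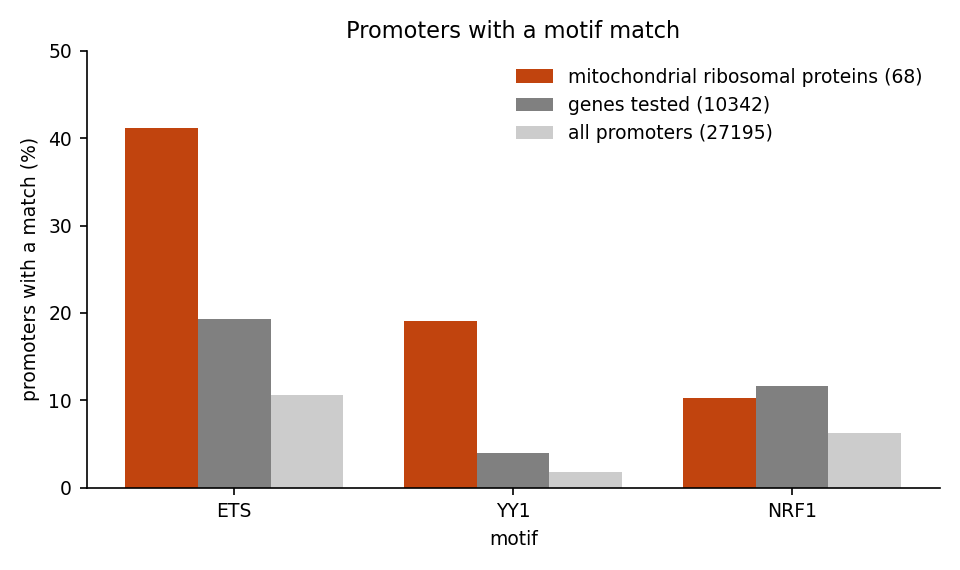
Share of promoters (%) with at least 1 match to the ETS, YY1 or NRF1 letters, for the 68 mitochondrial ribosomal protein genes with a promoter in RefSeq, the 10342 genes tested with one and all 27195 promoters. The members' bars stand at 41.2% for ETS and 19.1% for YY1, above both other sets, and at 10.3% for NRF1, between them.

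The windows of the 2 highest members and of the members with the largest difference in each direction are shown to place these letters, with motif matches in capitals. MRPS21 (chr1:150293611-150293910, plus strand) and MRPL51 (chr12:6493213-6493512, minus strand) each hold a pair of ETS matches. MRPL14 (chr6:44127259-44127558, minus strand), lower in HuES53, holds an NRF1 match on the reverse strand. MRPS10 (chr6:42217812-42218111, minus strand), higher in HuES53, holds an ETS match 22 bases before the start site and a YY1 match just after it. The coordinates are those of GRCh38.p14 and each sequence runs 5′ to 3′ on the strand of its gene.
MRPS21: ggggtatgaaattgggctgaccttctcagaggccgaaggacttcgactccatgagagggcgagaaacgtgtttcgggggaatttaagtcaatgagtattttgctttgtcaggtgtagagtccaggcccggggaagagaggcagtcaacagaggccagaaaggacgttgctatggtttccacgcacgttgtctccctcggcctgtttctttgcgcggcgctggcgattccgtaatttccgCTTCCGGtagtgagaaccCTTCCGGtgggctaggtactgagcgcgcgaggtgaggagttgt
MRPL51: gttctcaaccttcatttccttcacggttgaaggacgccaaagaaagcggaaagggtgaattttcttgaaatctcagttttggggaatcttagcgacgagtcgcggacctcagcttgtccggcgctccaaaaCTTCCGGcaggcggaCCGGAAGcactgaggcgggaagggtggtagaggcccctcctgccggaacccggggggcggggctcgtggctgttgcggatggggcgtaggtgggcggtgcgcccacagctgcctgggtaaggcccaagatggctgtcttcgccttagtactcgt
MRPL14: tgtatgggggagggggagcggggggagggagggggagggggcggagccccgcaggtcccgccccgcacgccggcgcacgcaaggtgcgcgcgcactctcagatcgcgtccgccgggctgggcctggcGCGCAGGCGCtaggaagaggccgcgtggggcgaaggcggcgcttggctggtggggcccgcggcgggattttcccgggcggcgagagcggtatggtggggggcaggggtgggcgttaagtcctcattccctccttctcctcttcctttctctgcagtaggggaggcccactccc
MRPS10: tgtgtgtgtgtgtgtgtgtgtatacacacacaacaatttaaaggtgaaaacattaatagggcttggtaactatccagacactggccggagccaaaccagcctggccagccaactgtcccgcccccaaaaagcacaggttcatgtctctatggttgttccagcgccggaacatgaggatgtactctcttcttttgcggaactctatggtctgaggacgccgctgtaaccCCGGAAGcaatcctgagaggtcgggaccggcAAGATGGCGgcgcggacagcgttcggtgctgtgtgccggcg

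Members with and without the letters had differences of the same sign with the deposited values. The median difference was -0.29 in the 28 members with ETS letters and -0.14 in the 40 without, -0.12 in the 13 with YY1 letters and -0.26 in the 55 without, and -0.13 in the 7 with NRF1 letters and -0.24 in the 61 without.

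MRPL46 and MRPS11 are a pair of members that start in opposite directions from the same stretch of chromosome 15. Their start sites are 320 bases apart in RefSeq, and their loci in the deposited table are 50 bases apart. MRPL46, of the large subunit, stood at 25.6 FPKM in HuES53 and 32.7 FPKM in HuES64 (-0.34). MRPS11, of the small subunit, stood at 23.9 FPKM in HuES53 and 31.2 FPKM in HuES64 (-0.37). The genes were thus alike in level in each line and in their difference. With TPM scaling, which shifts all differences by nearly the same amount, the genes stood at -0.10 and -0.13. Their promoter windows, chr15:88467339-88467638 (minus strand) and chr15:88467458-88467757 (plus strand) in GRCh38.p14, share 181 bases, and are shown because they are the only windows in which members face each other. The MRPL46 window holds a YY1 match after the start site, in capitals, and the MRPS11 window holds none of the 3 motifs.
MRPL46: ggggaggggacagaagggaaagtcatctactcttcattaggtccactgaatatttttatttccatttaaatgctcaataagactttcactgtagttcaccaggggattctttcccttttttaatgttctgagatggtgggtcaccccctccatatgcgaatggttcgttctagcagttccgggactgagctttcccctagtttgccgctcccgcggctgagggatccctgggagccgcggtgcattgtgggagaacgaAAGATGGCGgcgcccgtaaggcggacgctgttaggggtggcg
MRPS11: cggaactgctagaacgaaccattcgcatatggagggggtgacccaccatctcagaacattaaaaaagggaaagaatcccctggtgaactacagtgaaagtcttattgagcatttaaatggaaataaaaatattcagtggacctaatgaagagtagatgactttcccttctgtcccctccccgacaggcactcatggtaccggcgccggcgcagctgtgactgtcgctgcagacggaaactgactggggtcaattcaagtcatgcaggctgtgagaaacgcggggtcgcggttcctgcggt

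Such head-to-head starts within 1000 bases were found for 17 of 68 members (25%) and for 13.6% of the 10203 protein-coding genes tested. Apart from MRPL46 and MRPS11, the neighbour differed in the same direction as the member in 8 of 15 cases. MRPS12 faces SARS2, the mitochondrial seryl-tRNA synthetase gene, whose locus overlaps it. SARS2 stood at 30.5 FPKM in HuES53 and 37.5 FPKM in HuES64 (-0.29), against -0.53 for MRPS12. MRPL51 faces NCAPD2, a condensin gene, and the neighbours went opposite ways (70.0 FPKM in HuES53 and 50.7 FPKM in HuES64 for NCAPD2, 0.46).

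The mitoribosome holds 7 further proteins whose genes the table lists under other symbols. GADD45GIP1 (148 FPKM in HuES53 and 211 FPKM in HuES64), CHCHD1 (68.1 and 97.0 FPKM), AURKAIP1 (189 and 268 FPKM), ICT1, a peptidyl-tRNA hydrolase (44.9 and 62.1 FPKM), and MRP63 (21.97 and 28.1 FPKM) were lower in HuES53, by -0.51 to -0.34 on the log2 scale, and also with TPM scaling. DAP3, a GTP-binding protein (73.8 FPKM in HuES53 and 72.4 FPKM in HuES64), and PTCD3, a pentatricopeptide repeat protein (26.1 and 23.5 FPKM), were not. The median of the 7 was -0.46, against 0.03 for all genes. It was -0.22 with TPM scaling (0.25 for all genes), -0.23 with the expression trend removed and -0.16 with the GC and length trend of the longest transcript removed.

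Other genes of mitochondrial translation had medians close to that of all genes with the deposited values (0.03) and with TPM scaling (0.25). Of all genes, 47.5% were lower in HuES53, and 28% with TPM scaling. The 15 translation factors had a median of -0.03, with 8 of 15 lower in HuES53 (0.21 and 3 of 15 with TPM scaling). With the GC and length trend removed their median was -0.099, with 11 of 15 lower (50% of all genes). With the longest transcript in that removal it was -0.15, with 8 of 15 lower (50% of all genes). The mitochondrial ribosomal proteins had medians of -0.18 and -0.03 under these 2 removals. SLIRP, which stabilises mitochondrial messengers together with LRPPRC, stood at 713 FPKM in HuES53 and 878 FPKM in HuES64 (-0.30), and LRPPRC at 64.4 FPKM in HuES53 and 64.3 FPKM in HuES64. The elongation factor gene TUFM stood at 199 FPKM in HuES53 and 236 FPKM in HuES64 (-0.24). Higher in HuES53 were the recycling factor gene MRRF (14.6 FPKM in HuES53 and 10.7 FPKM in HuES64, 0.42) and the elongation factor gene GFM1 (24.97 FPKM in HuES53 and 18.7 FPKM in HuES64, 0.40). GUF1 followed (17.6 FPKM in HuES53 and 13.9 FPKM in HuES64, 0.33). The 17 mitochondrial aminoacyl-tRNA synthetases had a median of 0.0067, with 8 of 17 lower in HuES53 (0.25 and 2 of 17 with TPM scaling). With the GC and length trend removed their median was 0.011, and with the longest transcript 0.065, with 7 of 17 lower in each case (50% of all genes). IARS2 (47.9 FPKM in HuES53 and 43.3 FPKM in HuES64), RARS2 (38.7 and 40.8 FPKM) and NARS2 (39.9 and 35.0 FPKM) were the highest. WARS2 (7.75 FPKM in HuES53 and 5.32 FPKM in HuES64, 0.47) and CARS2 (11.9 and 9.31 FPKM, 0.32) were among those with the largest differences.

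Assembly factors and enzymes that modify mitochondrial ribosomal RNA were lower in HuES53 in 19 of 23 cases (47.5% of all genes), with a median of -0.15 against 0.03 for all genes. With TPM scaling 9 of 23 were lower (28% of all genes), with a median of 0.09 against 0.25 for all genes. RNMTL1, an rRNA methyltransferase, stood at 7.91 FPKM in HuES53 and 14.6 FPKM in HuES64 (-0.81), and its locus overlaps GLOD4. YBEY stood at 16.2 FPKM in HuES53 and 26.5 FPKM in HuES64 (-0.68). These 2 of 23 were at least 1.5-fold lower, as were 7.84% of all genes. DHX30, an RNA helicase, followed (27.1 FPKM in HuES53 and 35.2 FPKM in HuES64, -0.36). NGRN (128 FPKM in HuES53 and 129 FPKM in HuES64), ERAL1 (63.8 and 69.8 FPKM) and C7orf30, which encodes MALSU1 (65.6 and 72.9 FPKM), were the highest of the list.

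Of 14 genes for regulators of mitochondrial biogenesis and transcription, 12 reached a mean of 1 FPKM. Of these, 4 of 12 were lower in HuES53 (47.5% of all genes), with a median of 0.11. With TPM scaling 2 of 12 were lower (28% of all genes), with a median of 0.35. Removal of the GC and length trend gave a median of 0.026 with 6 of 12 lower (50% of all genes). With the longest transcript in that removal it was -0.049, with 8 of 12 lower (50% of all genes). MYC stood at 47.2 FPKM in HuES53 and 35.1 FPKM in HuES64 (0.42), YY1 at 45.3 FPKM in HuES53 and 36.5 FPKM in HuES64 (0.30), and TFAM, which packages and transcribes mitochondrial DNA, at 40.4 FPKM in HuES53 and 31.9 FPKM in HuES64 (0.33). GABPA, whose locus overlaps ATP5J, stood at 9.84 FPKM in HuES53 and 7.52 FPKM in HuES64 (0.35). With the GC and length trend removed GABPA came to -0.098, while MYC (0.63), YY1 (0.41) and TFAM (0.19) stayed higher in HuES53. ESRRA was lower in HuES53, at 17.96 FPKM against 24.6 FPKM in HuES64 (-0.43). PPARGC1A and PPARGC1B, coactivators of mitochondrial biogenesis, had means below 1 FPKM.

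The median difference of the mitochondrial ribosomal proteins was nearer to 0 than those of oxidative phosphorylation and the cytosolic ribosome. The 77 nuclear genes of oxidative phosphorylation had a median of -0.34, with 70 of 77 lower in HuES53 (47.5% of all genes) and 11 at least 1.5-fold lower (7.84% of all genes). With TPM scaling 56 of 77 were lower (28% of all genes). COX7C (1430 FPKM in HuES53 and 2070 FPKM in HuES64), ATP5B (872 and 956 FPKM) and ATP5I (701 and 818 FPKM) were the highest of them, and NDUFA11 (-0.82), NDUFA13 (-0.81) and NDUFV3 (-0.77) had the largest differences. The 79 cytosolic ribosomal proteins had a median of -0.64, with 79 of 79 lower (78 with TPM scaling) and 45 at least 1.5-fold lower, led in level by RPL37A, RPS29 and RPLP1 and in difference by RPL36A (-2.52, on a locus that overlaps a read-through gene), RPS26 (-1.15) and RPL13 (-0.94). With TPM scaling the medians were 0.04 for the mitochondrial ribosomal proteins, -0.10 for oxidative phosphorylation and -0.39 for the cytosolic ribosome. TPM scaling shifts all differences by nearly the same amount, so it could not change the order of these medians. The groups differ in level (medians of 63.5, 169 and 1081 FPKM in HuES53), and the differences between groups were not tested.

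**Figure D5:**
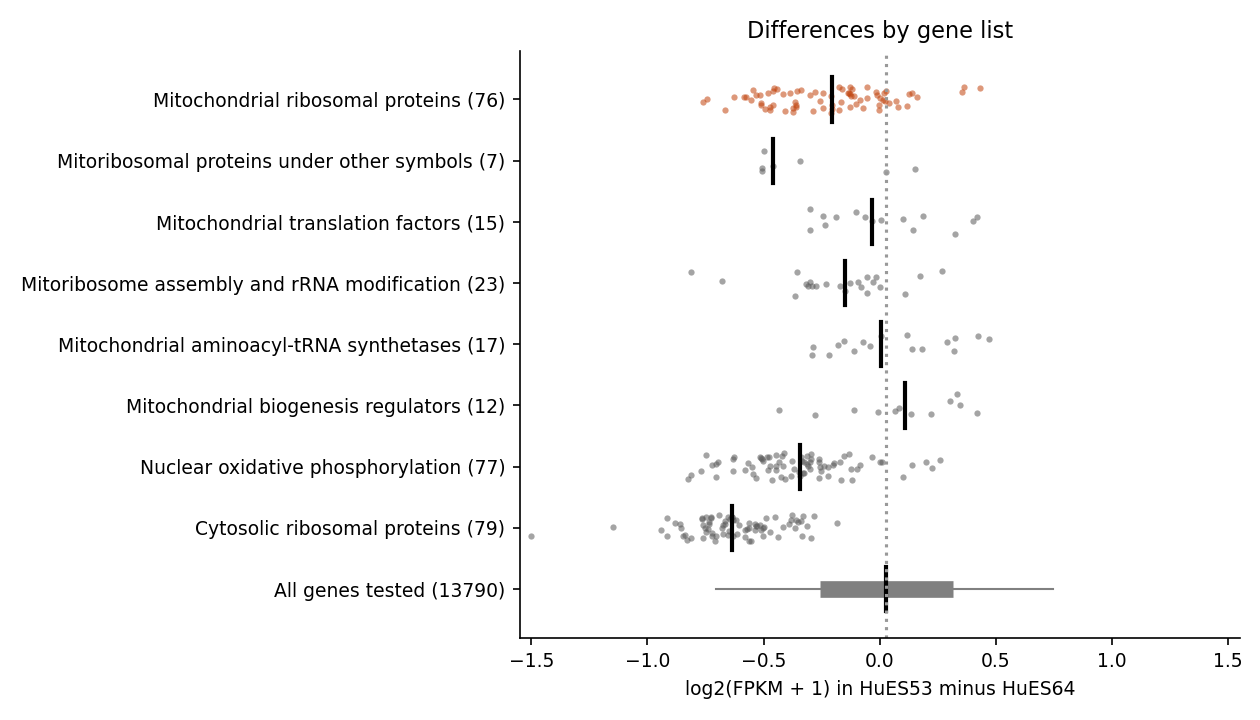
log2(FPKM + 1) in HuES53 minus HuES64 for each gene of 8 lists (points, with the list's median as a bar; RPL36A, beyond 1.5, is drawn at the edge) and for all 13790 genes tested (median, 25th to 75th percentiles as a box and the 5th to 95th percentiles as a thin line). The dotted line is the median of all genes. The cytosolic ribosomal proteins lie farthest left, and the mitochondrial ribosomal proteins lie between them and all genes.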

How the data were processed

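Polyadenylated RNA of 2 human embryonic stem cell lines was sequenced, 1 library each, after TruSeq library preparation, per the labels' protocols. The authors deposited 1 table of FPKM values, and TopHat2 2.0.4 and Cufflinks 2.0.2 appear, with no role stated, in the submitters' processing notes. The sources used here give no genome build, annotation, strand setting or filter. With 1 library per line, no test was made. Of 25593 rows, 136 on chromosome Y were left out, and rows that share a symbol were summed (21 symbols, none of them a member). Loci count from 0 in the table, since 1259 of 1298 microRNA loci then have the RefSeq length, and are printed counting from 1.

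Differences are log2(FPKM + 1), HuES53 minus HuES64, for the 13790 genes whose mean reached 1 FPKM. The pseudocount makes folds of low genes smaller. Transcript length and GC content are medians over GENCODE release 29 transcripts, matched by symbol or RefSeq synonym for 12843 genes and 76 of 76 members. Trends were removed by subtracting medians over 20 bins each, in 5 rounds, and this step was tested on simulated data. Fragments per FPKM were read from the smallest repeated step among short olfactory receptor loci (8 values in HuES53 and 3 in HuES64). Alternatives were pseudocounts of 0.1 and 0.5 FPKM, no filter or a mean of at least 5 FPKM, 3 other scalings, removal of trends, leaving out overlapping loci and keeping the highest row of a symbol. The longest-transcript version was added after seeing the data. Named members are the 10 highest and 5 lowest, the 6 largest differences each way, those past 1.5-fold, those on overlapping loci and a set chosen by role (MRPS18 homologues, MRPL10, MRPL11, MRPL12, MRPS7, MRPS12, MRPS36). MRPS30, MRPL3, MRPL45, MRPL46 and MRPS11 were named outside that rule after their values were seen, as were FAU, NCAPD2 and the adjusted values of single members. From each list the 3 highest and the 3 largest differences are named, except for 1 gene that is not reported here. The members and lists were chosen with earlier results of these data known. Analyses used Python 3.11.15 with pandas 2.3.3 and scipy 1.17.1.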

Additional observations from a re-analysis of the deposited data

How the results depend on the processing

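No paired analysis was possible because each line has 1 library, and for the same reason no replicate could be left out. With pseudocounts of 0.1 or 0.5 FPKM, no filter, or the highest row of a symbol, no value of the members changed direction. TPM scaling turned the median difference of the members to 0.036 (large subunit 0.035, small subunit 0.017, with a bacterial counterpart -0.0066, without one 0.082), with 36 members lower in HuES53 (23, 13, 25 and 11 in those groups), 0 at least 1.5-fold lower and 3 at least 1.5-fold higher. Their median levels were then 105.6 in HuES53 and 102.3 in HuES64. TPM scaling also gave 0.21 and 3 lower for translation factors, 0.094 and 9 for assembly factors, 2 lower for aminoacyl-tRNA synthetases, 0.35 and 2 for regulators, -0.10 for oxidative phosphorylation and -0.39 for the cytosolic ribosome. With an expression trend removed, medians were -0.076 for the members (the same relative to all genes), -0.064 for the large and -0.080 for the small subunit, -0.11 for those with a bacterial counterpart, -0.14 for oxidative phosphorylation and -0.36 for the cytosolic ribosome, with 1 member at least 1.5-fold lower. Removing GC and length left 2 such members and a cytosolic ribosome median of -0.56, and MRPL42 came to -0.0029. With the longest transcript, chosen after seeing the data, the medians were -0.026 for the members (the same relative to all genes and with a bacterial counterpart), -0.017 and -0.046 for the large and small subunits, -0.049 with 8 lower for regulators, -0.16 for oxidative phosphorylation and -0.40 for the cytosolic ribosome, with 1 member at least 1.5-fold lower, MRPL12 at 0.00096 and MRPL42 at -0.27. Median of ratios scaling gave 7 members at least 1.5-fold lower, -0.025 for the synthetases and -0.00097 for all genes. Upper quartile scaling gave -0.0086 for the synthetases, and a mean of at least 5 FPKM gave -0.0075 for all genes. Without overlapping loci, 41 cytosolic ribosomal proteins were left, all lower. The shares of all genes past 1.5-fold under these other settings are not given here, so the counts of members past 1.5-fold have no background. The causes were not tested. Depth limits the lowest members most, with about 161 fragments in HuES53 and 102 in HuES64 at the fewest.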

Other observations

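The table also lists relatives of the mitochondrial ribosomal protein genes that the naming rule leaves out. MRPL45P2, a pseudogene of MRPL45, stood at 2.95 FPKM in HuES53 and 3.77 FPKM in HuES64, far below MRPL45 itself. MRPL42P5, a pseudogene of MRPL42, stood at 0.465 FPKM in HuES53 and 0.142 FPKM in HuES64. MRPL23-AS1, a non-coding gene named after MRPL23 on chromosome 11, stood at 0.407 FPKM in HuES53 and 0.766 FPKM in HuES64. How fragments were shared between a gene and its pseudogenes is not given in the sources used here.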
